A study of Mus musculus with 26 samples.

Results

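Isl1 promoter peaks are the Isl1-bound intervals of E11.5 TrkC neurons whose midpoint lies within 1000 bp of an annotated transcription start site (TSS). They were taken from the consensus list of Isl1 CUT&RUN peaks on mm10, in which antibody-directed nuclease releases the DNA next to a bound protein. Any transcript of GENCODE M21 counted, and peaks whose midpoint fell in the BAC-E span on chromosome 4, the locus that the transgene of these embryos duplicates, were left out. Of 16035 Isl1 peaks, 119 lay in that span, 5 of them at promoters. Of the remaining 15916 peaks, 1585 were promoter peaks and 14331 were distal. The list marks each peak for V$LHXF, the Genomatix family of LIM-homeodomain binding motifs. Among the promoter peaks 901 carried V$LHXF and 684 did not.

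The neurons came from dorsal root ganglia (DRG) of mouse embryos bearing BAC-E-GFP, a BAC transgene of the *Runx3* locus with GFP in the gene, on a Cb6F1 background, and the ganglia of 10 to 20 embryos were pooled for each sample. The methods state that in some experiments neurons of GFP-positive or wild-type mice were instead isolated with magnetic beads. GFP follows the regulatory sequences of this BAC, so the sort takes the cells in which they are active. No mutant was profiled. The lists compared were those of Isl1 (3 samples), Brn3a (2), Runx3 (8), H3K27Ac (5) and ATAC (3), with 5 samples of normal rabbit serum (NRS) as CUT&RUN controls. The lists hold no value per sample and no depth, so every interval and p below describes counting error over peaks, not the spread between embryos. As a check of the cell type, all 8 TrkC neuron markers examined, among them *Ntrk3* and *Tubb3*, had an ATAC promoter peak. So did 64.8% of all protein-coding genes. 1 of the 8 neuron markers, *Runx3*, lies in the BAC-E span. None of 5 myeloid and lymphoid or 3 erythroid markers had an ATAC promoter peak. All 4 mesenchyme markers had one, as did 2 of 4 glia and neural crest markers and 1 of 2 muscle markers. The check thus does not set TrkC neurons apart from mesenchyme.

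Isl1 (Islet1) is a LIM-homeodomain transcription factor. Its homeodomain contacts short AT-rich sites built around a TAAT core, and its LIM domains bind cofactors such as Ldb1, through which it pairs with other factors. In DRG neurons it acts with the POU factor Brn3a, encoded by *Pou4f1*, in the exit from early neurogenesis and in the choice of sensory subtype. H3K27Ac marks active promoters and enhancers, and ATAC-seq marks accessible DNA.

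Sequences of 10 promoter peaks, chosen among the named genes, are given as examples of peaks with and without V$LHXF. Each is the plus strand of GRCm38.p6 from 5′ to 3′, cut to the middle 300 bp where the peak was longer, none overlaps an annotated exon, and capitals mark TAAT and its reverse complement ATTA. The 5 peaks with V$LHXF lay at *Sox11* (chr12:27342625-27342881), a SoxC factor of differentiating neurons, *Gap43* (chr16:42275585-42275884), a growth cone protein, *Hnrnpc* (chr14:52104073-52104254), an RNA-binding protein, *Rpl10* (chrX:74270196-74270377), a ribosomal protein, and *Pou2af1* (chr9:51212656-51212955), a B cell coactivator.
Sox11: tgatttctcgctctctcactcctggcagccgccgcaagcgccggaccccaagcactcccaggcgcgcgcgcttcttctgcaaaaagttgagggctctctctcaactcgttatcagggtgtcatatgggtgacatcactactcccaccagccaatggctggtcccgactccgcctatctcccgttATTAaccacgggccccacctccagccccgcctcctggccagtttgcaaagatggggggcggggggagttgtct
Gap43: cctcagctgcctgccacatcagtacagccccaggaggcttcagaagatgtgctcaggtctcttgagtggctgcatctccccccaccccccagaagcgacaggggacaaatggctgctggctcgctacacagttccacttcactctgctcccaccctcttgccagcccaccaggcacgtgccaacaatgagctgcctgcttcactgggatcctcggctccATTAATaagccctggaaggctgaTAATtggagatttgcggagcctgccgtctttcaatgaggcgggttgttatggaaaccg
Hnrnpc: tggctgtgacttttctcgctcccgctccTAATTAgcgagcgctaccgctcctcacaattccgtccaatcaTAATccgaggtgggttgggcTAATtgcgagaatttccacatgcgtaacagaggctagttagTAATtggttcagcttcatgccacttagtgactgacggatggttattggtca
Rpl10 with V$LHXF: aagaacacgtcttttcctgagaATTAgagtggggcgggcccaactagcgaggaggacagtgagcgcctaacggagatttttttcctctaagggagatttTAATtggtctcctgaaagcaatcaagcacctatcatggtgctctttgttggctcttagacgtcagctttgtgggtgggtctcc
Pou2af1: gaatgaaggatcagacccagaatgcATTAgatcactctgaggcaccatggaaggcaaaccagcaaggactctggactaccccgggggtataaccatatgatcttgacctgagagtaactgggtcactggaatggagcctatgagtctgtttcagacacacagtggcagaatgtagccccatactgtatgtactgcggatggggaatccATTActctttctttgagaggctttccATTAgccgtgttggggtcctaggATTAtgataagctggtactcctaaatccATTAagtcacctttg
The TAAT core occurred 5 times in the *Hnrnpc* peak, 5 times in the *Pou2af1* window, 3 times in that of *Gap43*, 2 times in the *Rpl10* peak and 1 time in the *Sox11* peak.

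The 5 peaks without V$LHXF lay at *Rpl10* again (chrX:74270600-74270797), *Hnrnpa2b1* (chr6:51469911-51470165), an RNA-binding protein, *Klf7* (chr1:64121628-64121808), a zinc finger factor of sensory neurons, *Rps6* (chr4:86857590-86857758), a ribosomal protein, and *Mybphl* (chr3:108363812-108364088), a myosin-binding protein of the heart.
Rpl10 without V$LHXF: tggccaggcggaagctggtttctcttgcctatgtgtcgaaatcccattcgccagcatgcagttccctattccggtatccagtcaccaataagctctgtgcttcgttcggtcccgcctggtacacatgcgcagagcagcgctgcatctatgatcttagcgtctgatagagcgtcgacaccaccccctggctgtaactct
Hnrnpa2b1: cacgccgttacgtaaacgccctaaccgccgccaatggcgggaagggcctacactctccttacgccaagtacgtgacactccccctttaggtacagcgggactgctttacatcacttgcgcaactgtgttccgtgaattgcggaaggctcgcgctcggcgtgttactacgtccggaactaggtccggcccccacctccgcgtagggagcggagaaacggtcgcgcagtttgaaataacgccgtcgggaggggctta
Klf7: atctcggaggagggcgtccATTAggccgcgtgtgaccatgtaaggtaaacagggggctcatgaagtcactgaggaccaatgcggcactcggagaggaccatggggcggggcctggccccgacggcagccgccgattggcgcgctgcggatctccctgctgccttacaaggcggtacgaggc
Rps6: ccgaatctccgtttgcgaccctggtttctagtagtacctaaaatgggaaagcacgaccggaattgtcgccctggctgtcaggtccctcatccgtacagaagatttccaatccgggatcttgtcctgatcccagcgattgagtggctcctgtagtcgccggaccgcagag
Mybphl: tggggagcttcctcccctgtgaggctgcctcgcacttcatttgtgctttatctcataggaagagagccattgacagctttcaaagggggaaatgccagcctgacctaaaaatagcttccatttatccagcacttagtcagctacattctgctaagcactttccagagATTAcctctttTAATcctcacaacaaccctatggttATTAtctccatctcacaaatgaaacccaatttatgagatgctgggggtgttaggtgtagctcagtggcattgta
The core was absent from the peaks of *Rpl10*, *Hnrnpa2b1* and *Rps6*, and occurred 1 time in that of *Klf7* and 3 times in that of *Mybphl*. The peaks without the core each held CCGGAA, the core of ETS factor sites, on either strand 1 time. Those of *Klf7* and *Mybphl* held none. In the 300 bp about the midpoint, CCGGAA was in 19.4% of all promoter peaks without V$LHXF. The share was 20.7% of ATAC promoter peaks without Isl1. The *Hnrnpa2b1* peak held 29 CpG in 255 bp, against 10 in the 182 bp of the *Hnrnpc* peak and 3 in the 300 bp shown for *Pou2af1*. Both *Rpl10* peaks lay upstream of the same start, by 526 and 114 bp. They overlapped peaks of all 4 other lists. The *Pou2af1* and *Mybphl* peaks overlapped none of them.

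Promoter peaks were a small share of Isl1 binding. They made up 9.96% of the Isl1 peaks (95% Wilson interval 9.50 to 10.4), compared with 17.7% of 32803 Brn3a peaks and 46.2% of 13382 Runx3 peaks outside the same span. Of 23357 ATAC peaks at promoters, 4.86% overlapped an Isl1 peak, 22.5% a Brn3a peak and 28.1% a Runx3 peak. The 3 factors thus differed in how much of their own list lay at promoters.

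V$LHXF was less frequent at promoters. It was present in 56.8% of Isl1 promoter peaks (54.4 to 59.3) and in 73.3% of distal peaks (72.5 to 74.0), beside 71.6% of all Isl1 peaks outside the span (odds ratio 0.48, 95% interval 0.43 to 0.53, two-sided Fisher's exact test with Benjamini-Hochberg adjustment, adjusted p = 3.75e-40). Across the edge of the 1000 bp window the share did not step: it was 69.0% in the 84 peaks at 901 to 1000 bp and 70.1% in the 77 at 1001 to 1100 bp. Within the window it went from 48.6% at 0 to 100 bp over 53.2% at 101 to 250 bp and 60.2% at 251 to 500 bp to 67.4% at 501 to 1000 bp. Peaks near a start thus carried the motif less often than peaks near the edge.

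The midpoints gathered just upstream of the TSS. The median distance was 154 bp (quartiles 55.8 and 414) for peaks without V$LHXF and 253 bp (96.0 and 621) for peaks with it. The bin from 100 bp upstream to the TSS held 25.4% of the former and 18.98% of the latter. Midpoints upstream of the TSS made up 62.1% of the peaks without the motif and 63.3% of those with it. By the annotation, 30.6% of midpoints without the motif lay in an exon, 33.6% in an intron and 35.8% between genes, against 21.9%, 47.2% and 31.0% with it.

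**Figure D1:**
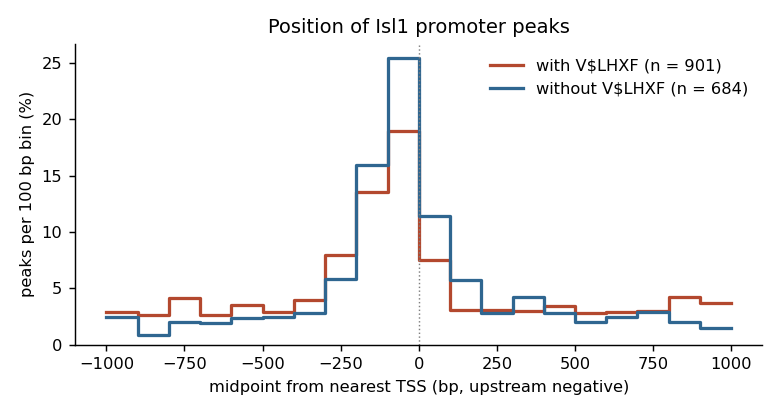
Position of Isl1 promoter peak midpoints from the nearest TSS (horizontal axis, bp, upstream negative) as the percentage of peaks in each 100 bp bin (vertical axis), for the 901 peaks with and the 684 without V$LHXF. Both classes peak in the bin just upstream of the TSS, at 18.98% and 25.4%.

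Peaks with the motif were wider, with a median of 221 bp (168 to 291) against 157.5 bp (126 to 212), as they were among distal peaks, with 242 against 168.5 bp. Peak width thus moved with the motif mark, and ratios within bins of width are given where they changed a call. The share with V$LHXF went from 31.7% in the narrowest quartile of promoter peaks, up to 143 bp, to 80.1% in the widest, over 261 bp. The 300 bp about the midpoint had a median GC of 49.0% with the motif and 55.3% without. These stood between distal Isl1 peaks, at 45.7%, and ATAC promoter peaks without Isl1, at 64.0%. The ratio of observed to expected CpG was 0.342 with the motif, 0.518 without, 0.215 in distal peaks and 0.757 in the ATAC promoter peaks. No test was made on these measures.

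A CpG-rich window was defined after the values had been seen, as 300 bp with GC over 50% and a CpG ratio over 0.6, the bounds commonly used for CpG islands. Of the promoter peaks 445 (28.1%) were CpG-rich, 41.2% of those without V$LHXF and 18.1% of those with it. Of distal Isl1 peaks 0.795% were CpG-rich and of ATAC promoter peaks without Isl1 67.2%. Isl1 promoter peaks were thus mostly CpG-poor, unlike most open promoters.

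**Figure D2:**
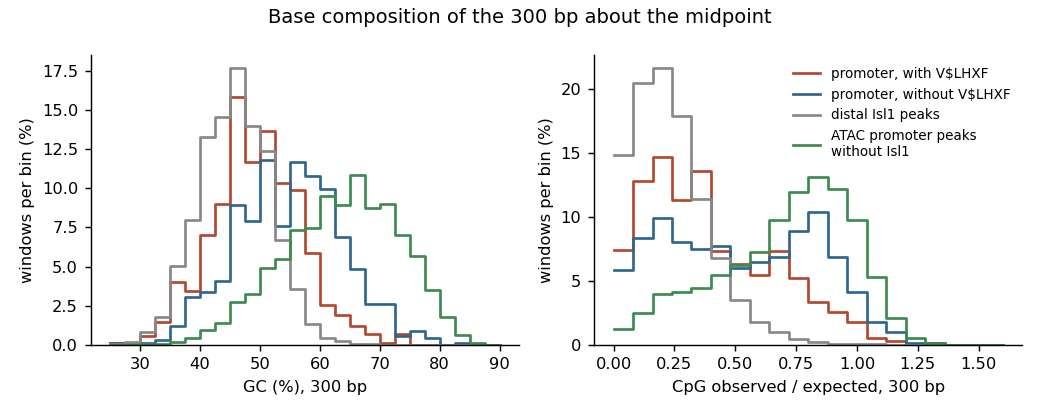
GC content (left, %) and observed over expected CpG (right) in the 300 bp about the midpoint, as the percentage of windows in each bin, for Isl1 promoter peaks with and without V$LHXF, distal Isl1 peaks and ATAC promoter peaks without Isl1. Promoter peaks without V$LHXF spread over low and high CpG ratios (median 0.518), and those with it lie lower (median 0.342).

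Short sequences in the same windows are given as a description. V$LHXF stands for LIM-homeodomain sites, which are built around TAAT. A higher share of TAAT sequences in the class with V$LHXF thus follows from the mark itself. The letters were searched on both strands, and the 22223 ATAC promoter peaks that overlapped no Isl1 peak served as background. TAAT was in 93.9% of windows with V$LHXF and 61.1% without, against 33.5% of the background. TAATTA, which contains TAAT, was in 17.6%, 3.36% and 1.82%. CTAATG was in 28.5%, 13.0% and 4.23%, and TAATGG in 34.2%, 10.8% and 4.24%. Of the windows without V$LHXF, 20.3% held at least 1 of the last 3 sequences, against 8.52% of the background. Most peaks are narrower than the window. Within the peaks as deposited, TAAT was in 91.9% with V$LHXF and 40.1% without. At least 1 of the last 3 sequences was in 53.9% and 12.4% of the deposited peaks.

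Letters known from promoters differed in direction between the classes. GGGCGG, the core of GC boxes bound by Sp1, was in 40.9% of windows without V$LHXF, in 21.5% of those with the motif and in 60.5% of the background. CCGGAA was in 19.4%, 9.21% and 20.7%. CCAAT, which NF-Y binds, was in 40.8%, 51.1% and 30.3%. Its reverse complement ATTGG can overlap a TAAT core, as in TAATTGG. The only CCAAT match in the *Gap43* window and in the *Rpl10* peak with V$LHXF was of this kind. The higher share with V$LHXF can thus follow in part from the mark, which was not tested. TGACGTCA, the CREB site, was in 2.34%, 1.55% and 2.46%, GCGCATGC, the core of the NRF1 site, in 2.92%, 2.11% and 3.57%, and the RUNX site ACCACA in 17.3%, 16.8% and 11.2%. Within CpG-rich windows, CTAATG was in 17.2% with V$LHXF and 8.16% without, against 2.56% of 14938 CpG-rich background windows. Among these windows TAAT was in 77.9%, 47.2% and 23.5%. A match is a run of letters and not a measured site.

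Promoter peaks lay at protein-coding genes about as often as annotated TSSs do. The nearest TSS belonged to a protein-coding gene for 1115 peaks (70.3%), beside 70.5% of all annotated TSSs. It belonged to a long non-coding RNA for 261, a pseudogene for 89, a TEC locus (a GENCODE class awaiting experimental proof) for 61, a small RNA for 52 and an immunoglobulin or T cell receptor segment for 7. Long non-coding RNAs were 16.5% of the promoter peaks, beside 11.3% of TSSs and 9.34% of ATAC promoter peaks. Pseudogenes were 5.62%, beside 10.8% of TSSs and 2.06% of ATAC promoter peaks, and protein-coding genes were 85.7% of ATAC promoter peaks. By transcript, 762 peaks were nearest a protein-coding transcript, 188 a processed transcript, 162 a lincRNA, 157 a retained-intron transcript, 61 an antisense RNA and 34 a transcript subject to nonsense-mediated decay.

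V$LHXF was less frequent at protein-coding genes than elsewhere. It was in 586 of 1115 peaks (52.6%) at protein-coding genes and in 315 of 470 (67.0%) at other gene types (odds ratio 0.55, 0.44 to 0.68, two-sided Fisher's exact test, p = 9.39e-08). Peaks at lincRNA genes carried it in 117 of 156 cases. The share was 73.3% at processed transcripts (22 of 30), 63.9% at TEC loci, 60.7% at pseudogenes and 56.9% at antisense genes (33 of 58). All 7 peaks at bidirectional promoter lncRNAs carried it. The widest of these lay at *1110020A21Rik* (chromosome 17, 84957011 to 84957332), beside *Ppm1b*, and at *Gm31510* (chromosome 7, 79272913 to 79273160), 1 bp from its start and beside *Abhd2*.

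Many peaks lay at a start that is not the 5′-most of its gene. The main start was taken as the 5′-most TSS of the protein-coding transcripts of a gene, or of all its transcripts where it had none. Of the 1585 peaks, 1123 lay within 1000 bp of a main start and 462 near an alternative start only. The motif was in 54.3% of the former and 63.0% of the latter (odds ratio 0.70, 0.56 to 0.87, two-sided Fisher's exact test, p = 0.00176). Within CpG-rich and other windows, an alternative added after the values were seen, the ratio was 0.96 (0.76 to 1.21, Mantel-Haenszel chi-square p = 0.749). The lowest share, 46.5%, was at main starts with a protein-coding gene nearest, 681 peaks. These also overlapped ATAC in 85.2% and H3K27Ac in 83.1%, against 53.9% and 44.7% of the 434 peaks at alternative starts of protein-coding genes.

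**Figure D3:**
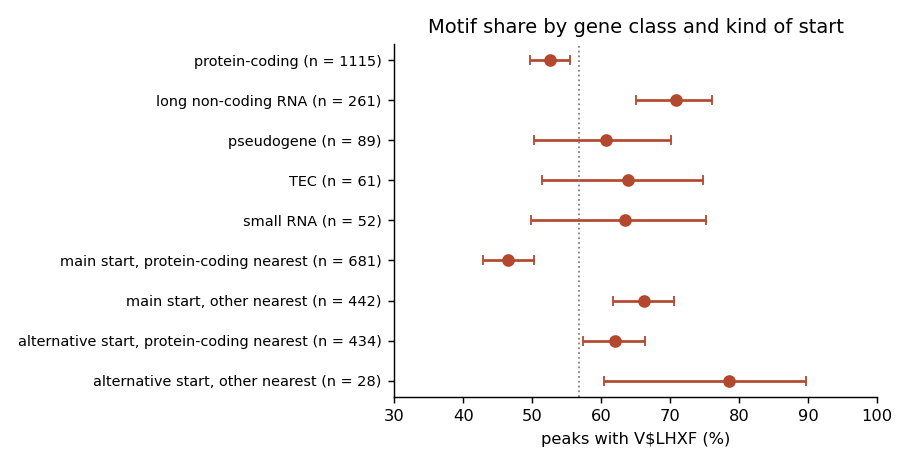
Share of Isl1 promoter peaks with V$LHXF (horizontal axis, %) by class of the nearest gene and by kind of start, for classes of 20 or more peaks, with 95% Wilson intervals. The dotted line is the share over all 1585 peaks, 56.8%, and peaks at main starts of protein-coding genes lie lowest at 46.5%.

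The peaks reached 1188 of 21937 protein-coding genes (5.42%) within 1000 bp of a TSS. Of these, 576 genes had peaks with V$LHXF only, 563 peaks without it only, and 49 had both. Most genes, 1102, had 1 promoter peak, 78 had 2 and 8 had 3. Protein-coding genes on both strands lay within 1000 bp for 8.77% of peaks without the motif (6.88 to 11.1) and 3.55% of peaks with it (2.53 to 4.97). Of the 1188 genes, 355 (29.9%) were also the nearest gene of a distal Isl1 peak, beside 15.5% of all protein-coding genes. Most were open, which here means an ATAC promoter peak at any TSS of the gene, not always that of the Isl1 peak. Of the 14220 such genes 1111 (7.81%) had an Isl1 promoter peak, and of the other 7717 genes 77 (0.998%). Of the peaks nearest a protein-coding gene, 73.0% themselves overlapped ATAC.

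Among the 38 sensory neuron TF genes matched of 40 listed, 11 (28.9%) had an Isl1 promoter peak, beside 5.42% of all protein-coding genes, and 34 had an ATAC promoter peak. Peaks with V$LHXF lay at 9 of them and peaks without at 3. *Isl2*, the paralog of Isl1, had a 283 bp peak with the motif on chromosome 9 (55540913 to 55541195), 94 bp from a TSS, which overlapped all 4 other lists. *Sox11*, and *Maf*, a bZIP factor of touch neurons, had motif peaks 179 and 137 bp from the start that also overlapped all 4. *Etv1*, an ETS factor of proprioceptors, had a motif peak of 272 bp and a peak of 133 bp without it, neither overlapping any other list, 35 and 6 bp from TSSs of alternative transcripts. *Eya1*, a transcriptional coactivator, had a 207 bp motif peak overlapping ATAC and Brn3a. *Six4* and *Klf7* had peaks without V$LHXF, of 132 and 181 bp, that overlapped all 4. None of the 10 neurotrophic factor receptor genes listed had an Isl1 promoter peak, and 9 had an ATAC promoter peak. This stands beside 5.42% of all protein-coding genes and 7.81% of those with an ATAC promoter peak. At such shares a list of 10 genes can well hold none.

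Of 20 genes used by most neurons, 5 had an Isl1 promoter peak, beside 5.42% of all protein-coding genes and 7.81% of those with an ATAC promoter peak. *Elavl4*, a neuronal RNA-binding protein, was 1 of the 8 protein-coding genes with 3 promoter peaks, of 147, 217 and 162 bp. Those of 147 and 217 bp lay side by side at an alternative start, 64356 and 64158 bp from the main start. That of 162 bp lay 497 bp from the main start. All 3 peaks carried V$LHXF and overlapped ATAC and H3K27Ac without Runx3. *Stmn2*, a regulator of microtubules, had a 318 bp motif peak 48 bp from a TSS, and *Gap43* one of 322 bp 338 bp from a TSS and 64917 bp from the main start. Both overlapped ATAC, H3K27Ac and Brn3a. The motif peak of *Map2*, a dendritic microtubule protein, overlapped no other list. *Mapt*, which encodes tau, had a 128 bp peak without the motif, 21 bp from its main start, overlapping ATAC, H3K27Ac and Runx3.

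Of 33 axon guidance and adhesion genes 5 (15.2%) had a peak, beside the same 5.42% of all genes and 7.81% of open ones, which also stand beside the next 3 lists. *Slit2* and *Slit3*, ligands of Robo receptors, had motif peaks of 328 and 325 bp at alternative starts, 198783 and 423183 bp from their main starts, and both overlapped ATAC, H3K27Ac and Brn3a without Runx3. The adhesion gene *Cntn2* and the semaphorin receptor gene *Plxnb1* had peaks without the motif. Among the sensory neuron ion channels listed (24 genes), 4 (16.7%) had a peak. They were *Scn10a*, the sodium channel Nav1.8, with a 253 bp motif peak 77 bp from its main start that overlapped Brn3a only, *Asic3*, an acid-sensing channel, *P2rx3*, an ATP receptor, and *Cacna2d2*, a calcium channel subunit. Of 39 Hox genes, 7 (17.9%) had a peak. *Hoxb7* had 2, 1 with and 1 without the motif, and the former, 369 bp wide, overlapped all 4 lists. Of 22 LIM domain factor and cofactor genes, 4 (18.2%) had a peak, among them *Isl2*, *Lmx1b*, which encodes a LIM-homeodomain factor, *Lmo3*, a LIM-only protein, and *Ssbp2*, a partner of Ldb proteins.

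The housekeeping lists stand beside the same shares of 5.42% of all genes and 7.81% of open ones. Of 79 cytosolic ribosomal protein genes, all with an ATAC promoter peak, 10 (12.7%) had one, 7 of them a peak without V$LHXF and 4 a peak with it. *Rps7*, *Rps18* and *Rps21* had peaks of 121, 122 and 127 bp without the motif at 15, 41 and 53 bp from their main starts, and each overlapped all 4 lists. *Rpsa*, which encodes a ribosomal protein, had a 221 bp motif peak 15 bp from its start that also overlapped all 4. Of 36 mRNA splicing and processing genes, 5 (13.9%) had a peak, and *Hnrnpl* had 3, of which 1, 561 bp wide, carried the motif. Of 24 genes used by every cell, 2 (8.33%) had a peak, of 25 replication and cell division genes 1 and of 21 immediate early genes 1 (4.76%), which is near those shares for all 3 lists. The last 2 were *Ccna2*, a cyclin, and *Jun*, an AP-1 subunit, both with a peak without the motif that overlapped all 4 lists, 44 and 5 bp from the main start. None of 12 glial and neural crest and 29 chromatin regulator genes had one. *C1qb*, a complement gene, was the 1 of 20 myeloid and lymphoid genes, *Ttr* the 1 of 15 liver, muscle and erythroid genes, and *Pdgfra* the 1 of 10 mesenchyme genes. No test was made on any list.

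Isl1 promoter peaks overlapped the other lists more often than distal Isl1 peaks, except for Brn3a. An ATAC peak was overlapped by 1068 of 1585 (67.4%, 65.0 to 69.6) and 45.1% of distal peaks, beside 47.3% of all Isl1 peaks (odds ratio 2.51, 2.25 to 2.81, exact adjusted p = 3.90e-64). H3K27Ac was overlapped by 889 (56.1%, 53.6 to 58.5) and 18.0%, beside 21.8% of all (odds ratio 5.83, 5.23 to 6.50, exact adjusted p = 4.55e-220). Runx3 was overlapped by 764 (48.2%, 45.7 to 50.7) and 24.7%, beside 27.0% of all (odds ratio 2.84, 2.56 to 3.16, exact adjusted p = 2.58e-80). Brn3a was overlapped by 965 (60.9%, 58.5 to 63.3) and 63.2%, beside 63.0% of all, a difference that did not pass (odds ratio 0.90, 0.81 to 1.01, exact adjusted p = 0.0663). These are two-sided Fisher's exact tests adjusted over 5 comparisons. Within CpG-rich and other windows the ratios were 1.607 (1.43 to 1.81) for ATAC, 3.42 (3.03 to 3.87) for H3K27Ac and 1.85 (1.64 to 2.09) for Runx3. With TSSs of protein-coding transcripts only, they were 4.69, 13.9 and 4.53. The Brn3a ratio depended on the setting. It passed below 1 within CpG-rich and other windows (0.82, 0.73 to 0.92, chi-square adjusted p = 0.00113), without widening (0.90, exact adjusted p = 0.0428) and with 50% overlap (0.90, exact adjusted p = 0.0459). It went to 1.11 with a window of 500 bp, 1.05 with protein-coding TSSs only and 1.10 within bins of peak width, none of which passed. Promoter peaks of Brn3a and Runx3 overlapped ATAC and H3K27Ac more often than those of Isl1, with no test made. The shares were 84.2% and 79.3% for Brn3a, and 95.8% and 92.8% for Runx3.

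Peaks with V$LHXF differed from those without in the lists they met. Brn3a was overlapped by 609 of 901 peaks with the motif (67.6%, 64.5 to 70.6) and 356 of 684 without (52.0%, 48.3 to 55.8), an odds ratio of 1.92 (1.57 to 2.36, exact adjusted p = 1.65e-09). H3K27Ac went the other way, with 454 (50.4%, 47.1 to 53.6) against 435 (63.6%, 59.9 to 67.1), an odds ratio of 0.58 (0.47 to 0.71, exact adjusted p = 3.59e-07). Runx3 was overlapped by 409 (45.4%) against 355 (51.9%), an odds ratio of 0.77 (0.63 to 0.94, exact adjusted p = 0.0149). ATAC was overlapped by 595 (66.0%) against 473 (69.2%), which did not pass (0.87, 0.70 to 1.07, exact adjusted p = 0.195). The test was Fisher's exact test, two-sided, adjusted over the 4 lists.

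**Figure D4:**
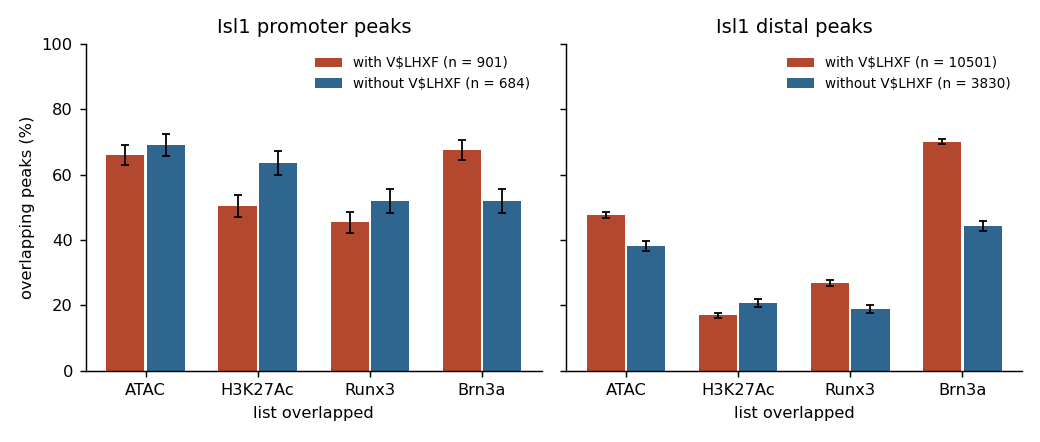
Share of Isl1 peaks (vertical axis, %) that overlap a peak of each list (horizontal axis), with and without V$LHXF, at promoters (left) and away from them (right), with 95% Wilson intervals. Brn3a overlap is higher with the motif on both sides (67.6 against 52.0% and 70.1 against 44.3%), and H3K27Ac is more frequent at promoters than away from them in both classes.

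Of the 3 differences that passed, only that of Brn3a also passed within CpG-rich and other windows. This is a single cut, and the 1140 peaks that are not CpG-rich form 1 class. Base composition and peak width were not matched within the classes. Of CpG-rich promoter peaks, 93.9% with the motif and 96.5% without overlapped H3K27Ac, and of the others 40.8% and 40.5%. Within the 2 classes the H3K27Ac ratio was 0.97 (0.76 to 1.23, Mantel-Haenszel chi-square adjusted p = 0.850). The Runx3 ratio was 1.25 (0.99 to 1.57, chi-square adjusted p = 0.0874) and that of ATAC 1.46 (1.15 to 1.85, chi-square adjusted p = 0.00486), both in the other direction than without the classes. That of Brn3a was 2.34 (1.88 to 2.91, chi-square adjusted p = 5.42e-14). Brn3a was overlapped by 77.9% of CpG-rich peaks with the motif and 65.2% without, and by 65.3% and 42.8% of the others. The classes were chosen after seeing the data. Over all alternatives the Brn3a ratio lay between 1.43, within 4 bins of peak width, and 2.34.

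Overlap also went with the distance from the start. From 0 to 100 bp of a TSS 85.6% of the peaks overlapped ATAC and 78.9% H3K27Ac, and from 501 to 1000 bp 42.0% and 31.4%. Runx3 went from 63.4 to 25.6% and Brn3a from 67.5 to 49.2%, so Brn3a varied least along the window. Where Brn3a overlapped, its midpoint lay a median of 34 bp from that of the Isl1 peak with V$LHXF and 31 bp without. For Runx3 the medians were 44 and 40 bp, for ATAC 48 and 47 bp and for H3K27Ac 199.5 and 200.0 bp.

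The Brn3a peaks met by the motif class were themselves mostly motif peaks. Of the 609 Isl1 peaks with V$LHXF that overlapped Brn3a, 69.1% (65.4 to 72.7) met a Brn3a peak with V$BRNF, the motif family of Brn3 factors, against 34.8% (30.1 to 39.9) of the 356 without, and 80.4% of distal Isl1 peaks that overlapped Brn3a. The overlapping Runx3 peak held at least 1 RUNX binding site (RBS) in 58.4% with V$LHXF (53.6 to 63.1), 53.5% without (48.3 to 58.6) and 70.8% of the distal ones. These shares are a description, to be read beside those over all peaks of each list outside the BAC-E span. V$BRNF was in 34.4% of all Brn3a promoter peaks and 80.2% of distal Brn3a peaks. An RBS was in 64.9% of all Runx3 promoter peaks and 77.0% of distal Runx3 peaks. The 34.8% and 80.4% for Brn3a were thus near the shares of its whole list, and the Runx3 shares lay below those of its list.

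Runx3 and Brn3a met at the same Isl1 promoter peaks. Runx3 overlapped 605 of 965 peaks with Brn3a (62.7%) and 159 of 620 without (25.6%), an odds ratio of 4.87 (3.90 to 6.09, exact adjusted p = 6.84e-48). It was 4.42 (3.21 to 6.07) among peaks with V$LHXF and 7.04 (5.03 to 9.86) among those without. Runx3 and Brn3a also met at distal Isl1 peaks, with no test made. There Runx3 overlapped 3092 of 9062 peaks with Brn3a. Of the distal peaks without Brn3a, 444 overlapped Runx3 and 4825 did not. H3K27Ac overlapped 79.2% of the 764 peaks with Runx3 and 34.6% of the 821 others, an odds ratio of 7.19 (5.74 to 9.02, exact adjusted p = 2.10e-73). With Brn3a the shares were 64.6% and 42.9%, an odds ratio of 2.42 (1.97 to 2.98, exact adjusted p = 4.75e-17). These ratios come from two-sided Fisher's exact tests, adjusted over 3 comparisons for Runx3 and over 6 for H3K27Ac. Within CpG-rich and other windows the ratio of H3K27Ac with Runx3 was 4.21 (3.29 to 5.40), and with all peaks set to a fixed width it was 3.83 (3.09 to 4.76).

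The most frequent combination was all 4 lists. It held 476 peaks (30.03%), 248 with V$LHXF and 228 without, against 6.26% of distal Isl1 peaks. None of the lists was met by 255 peaks (16.1%), 119 with and 136 without. Brn3a as the only list was the combination of 135 peaks, 80.0% of which carried the motif. ATAC, H3K27Ac and Runx3 without Brn3a was that of 115 peaks, 32.2% of which carried it. The class with Brn3a alone and the class that lacked only Brn3a thus stood at opposite ends of the motif share.

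**Figure D5:**
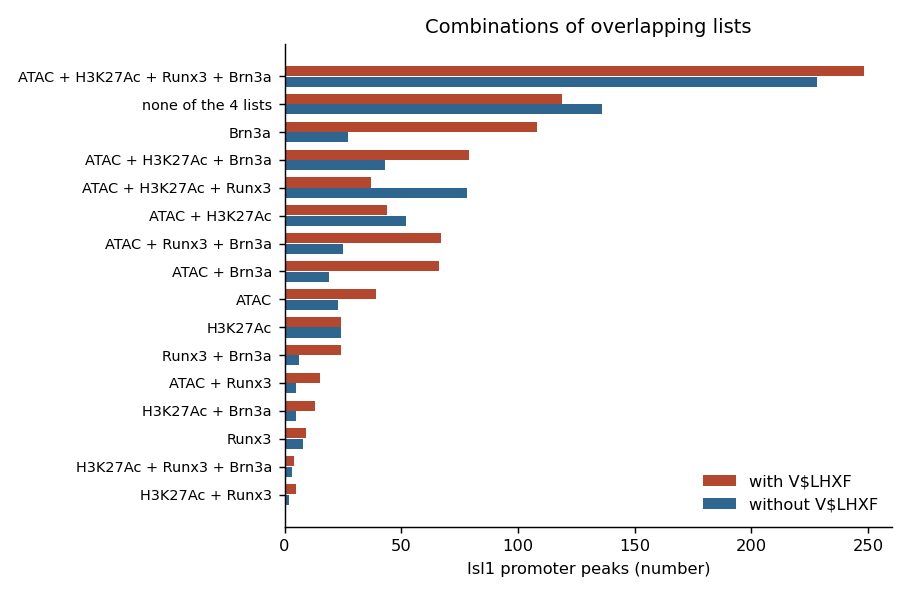
Number of Isl1 promoter peaks (horizontal axis) for each combination of overlapped lists (vertical axis), with and without V$LHXF. All 4 lists together are most frequent in both classes (248 and 228 peaks), and Brn3a alone is mostly peaks with the motif (108 against 27).

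The widest peaks that overlapped all 4 lists were, with V$LHXF, those at *AC162035.2*, a lincRNA (760 bp), *Gm37160*, a TEC locus (749 bp), *Ldlrad3* (743 bp), *Phc2*, a Polycomb protein (659 bp), and *Mad1l1*, a spindle checkpoint protein (584 bp). The last 3 lay at alternative starts. Without V$LHXF they were those at *Rnf5*, a ubiquitin ligase, beside *Agpat1* (476 bp), *Phf19*, a Polycomb-associated protein (465 bp), *Fam220a* (456 bp), *Siva1*, an apoptosis regulator (415 bp), and *Tomm40l* (414 bp). Of these only that of *Phf19* lay at an alternative start. The widest peaks that overlapped no list were at *Gm42481* (544 bp), *Nup93*, a nuclear pore protein (479 bp), *Pou2af1* (466 bp), *Mir6927* in *Mllt6* (445 bp) and *AC137585.1* (402 bp) with the motif. Without it they were at *Gm44104* (319 bp), *Cd200r4* (282 bp), *Trim80* (281 bp), *Mybphl* (277 bp) and *1700012J22Rik* (260 bp).

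Of all promoter peaks the widest with V$LHXF were at *Gm4076* (938 bp), *Gm13340* (918 bp), *Slc17a4* (884 bp), *Gm11408* (845 bp) and *AC162035.2*. Without it they were at *Prpsap1* (665 bp), *Acaa2*, a mitochondrial thiolase (518 bp), *Dmxl2* (491 bp), *Rnf5* and *Phf19*. *Gm4076*, *Gm13340* and *Gm11408* are pseudogenes that share sequence with the mitochondrial genome, as given next. Among other protein-coding genes with 3 promoter peaks, *Zbtb20* and *Hnrnpl* had 1 peak with V$LHXF, and *Esrrg*, *Mid1* and *Bcas3* each had 2.

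A set of 32 promoter peaks (2.02%) shared at least 1 word of 25 bases with the mitochondrial genome, against 0.126% of distal Isl1 peaks, and 29 of them lay at pseudogenes. The genes with the most promoter peaks were among them: *Gm13341* with 6 and *Gm11410* with 4. Peaks of *Gm13341* and *Gm13340* shared between 56.7 and 100% of their words, on chromosome 2 from 22587288 to 22590398. Of the 32 peaks 28 overlapped ATAC and 25 Runx3, 8 overlapped Brn3a and none H3K27Ac, which allows a share of up to 10.7% by the Wilson interval. Other peaks of the set shared few words, down to 3.85% at *Gm48142*. The methods name a filter on unique reads for ATAC and none for CUT&RUN. Whether reads at these peaks were of mitochondrial origin was not tested. Without the 32 peaks the odds ratios of V$LHXF against none were 1.997 for Brn3a, 0.59 for H3K27Ac, 0.76 for Runx3 and 0.86 for ATAC, each on the same side of the threshold. At the 60 remaining peaks of the pseudogene types ATAC was overlapped by 25 and H3K27Ac by 6.

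Peaks at small RNAs were few, and their overlaps are given with no test. Of 13 peaks nearest a miRNA gene, 2 overlapped ATAC and none H3K27Ac, 3 Brn3a and 1 Runx3. The widest lay at *Mir6927*, with no overlap, and *Mir466q*, with Brn3a. The 17 peaks nearest snRNA genes overlapped Brn3a in 70.6% and H3K27Ac in 17.6%, the widest at *Gm24582* (384 bp) and *Gm22043* (376 bp), both in introns. The 12 nearest snoRNA genes, with *Gm25376* (369 bp) and *Gm22268* (360 bp) as the widest, overlapped H3K27Ac in 8.33%. The peak at the misc_RNA *Gm27861* (403 bp), on chromosome 6 from 52160823 to 52161225, overlapped all 4 lists, and that at *Gm23030* (386 bp) Brn3a only. Of the 61 peaks at TEC loci 18.0% overlapped H3K27Ac and 65.6% Brn3a.

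The overlaps at long non-coding RNAs are given beside those at coding genes with no test. Of the 261 peaks 65.9% overlapped Brn3a, 59.4% ATAC, 40.6% H3K27Ac and 35.2% Runx3, beside 61.1, 73.0, 68.2 and 53.2% of the 1115 peaks at protein-coding genes. After *AC162035.2* the widest lincRNA peak, at *Gm45332* (502 bp), overlapped Brn3a only. The widest at antisense genes lay at *4921534H16Rik* (415 bp) with Brn3a and *Gm45486* (379 bp) with ATAC, those at processed transcripts at *4933430N04Rik* (481 bp) and *Gm13684* (360 bp), and those at sense-intronic genes at *Gm46409* (402 bp) and *Gm15479* (391 bp). At immunoglobulin kappa variable segments on chromosome 6, the peaks of *Igkv9-124* (283 bp), *Igkv9-123* (260 bp), *Igkv11-118* (308 bp) and *Igkv11-106* (200.0 bp) each overlapped ATAC, Runx3 and Brn3a without H3K27Ac. They lay 108 to 191 bp upstream of the start, and such segments share sequence. The 2 widest peaks at transcribed unprocessed pseudogenes were at *Olfr333-ps1* (325 bp) and *Apol10c-ps* (266 bp), and at transcribed processed pseudogenes at *B230303A05Rik* (213 bp) and *6330549D23Rik* (165 bp).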

How the data were processed

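CUT&RUN and ATAC-seq were compared as deposited lists of consensus peaks, 1 for each factor or mark. Per the study's methods, the authors trimmed reads with Cutadapt, aligned them to mm10, selected CUT&RUN fragments no longer than 90 bp, and MACS2 called the peaks against NRS controls with duplicates kept. ATAC reads were aligned with Bowtie2, Picard 1.119 removed duplicates, reads that did not map uniquely were filtered out, and read pairs of up to 120 bp were kept. The authors took peaks shared by at least 2 of the Isl1, Brn3a and ATAC samples, 3 of the H3K27Ac and 4 of the Runx3 samples, removed those over 60% in repeats or on the blacklist, and marked V$LHXF and V$BRNF with Genomatix and RBS with their own script. The deposited values are coordinates and motif marks with no count, signal or depth, so precision is limited by the number of peaks.

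Starts were read as 1-based. Peaks shorter than 300 bp (ATAC 500 bp) were widened about the midpoint, and 1 bp of overlap counted. TSSs were those of GENCODE M21 (141730 transcripts on the chromosomes used), and sequences came from GRCm38.p6. Samples were grouped by their antibody or assay. Shares carry 95% Wilson intervals and odds ratios 95% intervals, with two-sided Fisher's exact tests, Benjamini-Hochberg adjustment within each family and a threshold of 0.05. The effect of the motif at promoters against distal peaks was an interaction term of a logistic model, tested by likelihood ratio (chi-square), and stratified ratios were Mantel-Haenszel with its chi-square test. The tests were tested on simulated data. p-values treat peaks as independent, and neighbouring peaks may not be. The tools were statsmodels 0.14.6, scipy 1.17.1 and pandas 2.3.3 under Python 3.11.15, with pysam 0.24.0 for sequences and matplotlib 3.10.9 for figures.

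Genes named were, for each gene list and motif class, up to 6 with the widest peak, the 5 widest peaks of each motif class, those overlapping all 4 or none of the lists, the genes with the most peaks, and the 2 widest for each non-coding type. Other genes of short lists were named after their values were seen, and some genes that the rule names are not reported here. The members, gene lists and tests were chosen with earlier results of these data known. Alternatives varied the widening, the overlap, the window, the TSS set, peak width, peaks sharing a gene and the start convention. Those on mitochondrial sequence, CpG content, kind of start and distance were chosen after seeing the data.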

Additional observations from a re-analysis of the deposited data

Results flagged for a closer look

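The effect of V$LHXF on overlap differed between promoter and distal Isl1 peaks for each of the 4 lists, by an interaction term in a logistic model over 15916 peaks (likelihood-ratio chi-square) with Benjamini-Hochberg adjustment. For Runx3 the odds ratio of peaks with the motif against those without was 0.77 at promoters and 1.57 (1.43 to 1.72) at distal peaks, a ratio of 0.49 (0.39 to 0.61, chi-square adjusted p = 7.63e-10). For ATAC it was 0.87 and 1.46 (1.36 to 1.58), a ratio of 0.59 (0.47 to 0.74, chi-square adjusted p = 1.08e-05). For Brn3a both were above 1, 1.92 and 2.95 (2.73 to 3.18), a ratio of 0.65 (0.52 to 0.81, chi-square adjusted p = 0.000178). For H3K27Ac both were below 1, 0.58 and 0.78 (0.71 to 0.86), a ratio of 0.74 (0.60 to 0.93, chi-square adjusted p = 0.00947).

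With the CpG class of the window in the model, chosen after seeing the data, none of the 4 passed. The ratios were 0.83 (0.64 to 1.07) for Runx3, 0.99 (0.77 to 1.28) for ATAC, 0.83 (0.65 to 1.06) for Brn3a and 1.23 (0.95 to 1.59) for H3K27Ac. CpG-rich windows made up 18.1% of promoter peaks with the motif and 41.2% of those without, against 63 of 10501 and 51 of 3830 distal peaks.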

How the results depend on the processing

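Of 148 values over 24 results and 12 alternatives, 124 kept their direction and their side of the threshold, and 15 results did so under every alternative run on them. Among promoter peaks with V$LHXF against those without, the ATAC ratio passed with protein-coding TSSs only (0.66) and within bins of width (0.68), and turned within CpG classes (1.46), kinds of start (1.14) and classes of distance (1.124). That of H3K27Ac no longer passed within CpG classes (0.97) or kinds of start (0.79). That of Runx3 no longer passed with a 500 bp window (0.78), within kinds of start (0.98) or distance (0.93), and turned within CpG classes (1.25). The Brn3a ratio of promoter against distal peaks passed without widening (0.90), with 50% overlap (0.90) and within CpG classes (0.82), and turned with a 500 bp window (1.11), protein-coding TSSs (1.05) and within width bins (1.10). The promoter-to-distal ratio of motif effects no longer passed within CpG classes for ATAC (0.99), Runx3 (0.83) and Brn3a (0.83), and for H3K27Ac at fixed width (0.88) and within width bins (0.84), and turned within CpG classes for H3K27Ac (1.23). That of main against alternative starts was 0.96 within CpG classes. The cause was not tested. No paired analysis was possible because the lists pool the samples and carry no replicate numbers. For the same reason no replicate could be left out, and depth limits cannot be given.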
